A study of Mus musculus with 10 samples.

Results

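The genes described here are the metallothioneins Mt1, Mt2, Mt3 and Mt4, the metal-sensing transcription factor gene Mtf1 and the zinc exporter gene Slc30a1. All probe sets annotated to these 6 symbols alone were taken, which gave 12 of the 45037 probe sets of the array that are not controls, and 6 of 18193 named genes. The genes were chosen by measured values, since earlier results of these same arrays, among them the higher signal of Mt1 and Mt2 in Mll-deficient cells, were known when the set was drawn up. The difference between the groups is therefore given for these 6 genes as a description, with no test.

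Metallothioneins are small cysteine-rich proteins that bind zinc and copper and buffer the free metal inside the cell. When free zinc rises, Mtf1, a zinc finger protein, binds metal-response elements in the promoters of Mt1, Mt2 and Slc30a1, so that more metal is bound and more is exported across the plasma membrane. Mt1 and Mt2 are made in most tissues and are also induced by glucocorticoids, by interleukin 6 through Stat3 and by oxidative stress, whereas Mt3 is known mainly from brain and Mt4 from stratified epithelia.

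RNA was measured in bone marrow cells sorted as LSK/CD48-, a lineage-negative fraction enriched for haematopoietic stem cells, from 5 Mll-deficient and 5 control mice on 10 Affymetrix Mouse Genome 430 2.0 arrays. The Mll-deficient mice had the genotype Mx1-cre;Mll F/F, in which an interferon-inducible cre deletes floxed Mll, listed as Kmt2a, which encodes a methyltransferase of histone H3. The controls were Mll F/F without cre. All mice of both groups were 8-week-old females on a B6.SJL-Ptprca Pep3b/BoyJ background, and all were given the interferon inducer pI:pC, in 3 doses of 10 µg per gram plus 50 µg at 48-hour intervals, with marrow taken on day 6. Effects of cre itself and of Mll loss cannot be told apart in this design. Mx1-cre is not restricted to blood cells, and RNA came from as few as 1500 sorted cells and was amplified.

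The median signal of an array lay between 18.1 and 28.9 arbitrary units. Control replicate 5 had the lowest mean correlation with the arrays of its group, 0.926 against 0.952 or more for the other arrays, and the highest 3' to middle ratio of the Gapdh and Actb control probe sets, a measure of RNA quality, at 5.24 on the log2 scale. Neither Kmt2a probe set passed the test, with differences of -0.38 ± 0.35 and -0.55 ± 0.31 (limma SE, adjusted p = 0.736 and 0.498 over all probe sets), and where they lie relative to the deleted part was not analysed here. Of 6 genes listed for the stem cell gate, 4 had a probe set used here, and all 4 (Kit, Cd34, Procr and Slamf1) were above the filter on low signal. Of these 0 passed limma (0 higher and 3 lower at an unadjusted p under 0.05), with Kit at 126 ± 34.2 in controls and 72.3 ± 27.0 in Mll-deficient samples (SD, n = 5 each). In the same order, Procr was at 1124 ± 562 and 538 ± 296, and Slamf1 at 101 ± 39.0 and 54.8 ± 6.65. Cd34 was higher in mean in Mll-deficient samples, at 417 ± 185 against 332 ± 70.3. Only Kit did not overlap between the groups. Of 8 genes that the sort gates out, 6 had a probe set used here, and 4 of these (Cd48, Cd8a, Cd79a and Itgam) were above that filter while Cd3e and Cd4 were below it. Of the 4, 0 passed limma (0 higher and 1 lower, Itgam, at an unadjusted p under 0.05). An unadjusted limma p under 0.05 was reached by 2606 of all 12580 tested genes, in either direction. Cd48, which the gate is set against, had a mean of 109 ± 63.1 in controls, with 124 ± 41.5 in the Mll-deficient group (SD, n = 5 each). The neutrophil genes S100a8 and S100a9 were bright in both groups, at 23795 ± 8157 and 21627 ± 2589 in controls and at 25895 ± 5032 and 24073 ± 6888 in Mll-deficient samples (SD, n = 5 each). Among 13 granulocyte and monocyte genes 0 passed limma in either direction (3 higher and 1 lower at an unadjusted p under 0.05), and their summed signal ranged from 117379 to 173932 in controls and from 122055 to 204131 in Mll-deficient samples.

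The promoters of Mt1, Mt2 and Slc30a1 are printed because these 3 genes are the known targets of Mtf1 among the members, and they did not share 1 pattern of signal. The sequences are RefSeq windows of GRCm38.p6, each from 250 bases before to 50 bases after a start of the gene, on the plus strand, at chr8:94178839-94179138 for Mt1, chr8:94172368-94172667 for Mt2 and chr1:191906531-191906830 for Slc30a1. Capitals mark the core of the metal-response element, searched as TGCACNC and TGCGCNC on both strands.
Mt1: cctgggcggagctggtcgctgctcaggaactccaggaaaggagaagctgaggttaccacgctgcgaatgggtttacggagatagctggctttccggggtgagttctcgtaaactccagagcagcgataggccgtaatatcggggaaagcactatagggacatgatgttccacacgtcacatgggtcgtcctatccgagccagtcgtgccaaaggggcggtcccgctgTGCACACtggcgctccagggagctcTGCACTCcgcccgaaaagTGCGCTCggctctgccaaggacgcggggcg
Mt2: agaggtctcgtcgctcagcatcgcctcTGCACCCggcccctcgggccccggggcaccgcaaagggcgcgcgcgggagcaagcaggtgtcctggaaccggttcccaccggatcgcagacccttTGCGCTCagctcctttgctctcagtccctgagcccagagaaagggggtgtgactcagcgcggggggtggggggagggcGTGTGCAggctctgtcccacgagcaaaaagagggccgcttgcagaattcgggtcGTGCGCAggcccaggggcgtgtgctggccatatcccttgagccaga
Slc30a1: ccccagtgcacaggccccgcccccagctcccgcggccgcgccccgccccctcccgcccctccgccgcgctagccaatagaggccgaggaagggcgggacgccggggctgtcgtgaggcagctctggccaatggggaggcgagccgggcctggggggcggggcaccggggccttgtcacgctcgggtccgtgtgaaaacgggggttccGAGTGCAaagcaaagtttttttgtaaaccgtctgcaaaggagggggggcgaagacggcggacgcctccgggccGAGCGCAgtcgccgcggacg

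The Mt1 window held 3 core matches, all on the strand of the gene, the first bases of which lay at -23, 3 and 21 from the start. The Mt2 window held 4, at -223 and -128 on the strand of the gene and at -50 and 5 on the opposite strand. The Slc30a1 window held 2, both on the opposite strand, at -43 and 31. Of 32851 RefSeq promoter windows of 300 bases, 1.97% held at least 3 matches, 0.517% at least 4 and 7.11% at least 2. Mt3 and Mt4 had 1 match each, where 25.7% of all windows had at least 1, and Mtf1 had 0. The windows of Mt1, Mt2 and Slc30a1 were 60.7%, 67.7% and 73.0% G or C, against a median of 52.7%, and base composition alone changes how often such a short word occurs. The start that anchors the windows of Mt1 and Slc30a1 lies inside the RefSeq span of the gene. Bases outside a window, upstream or downstream of it, were not searched. A match is a run of letters and was not tested as a binding site.

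**Figure D1:**
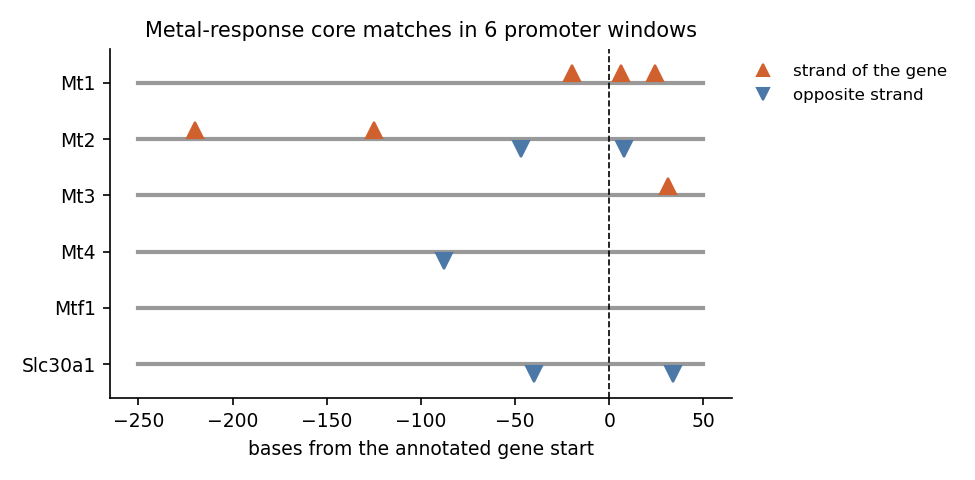
Position of metal-response core matches in the promoter windows of the 6 genes, in bases from the gene start used by RefSeq's window (dashed line). Upward triangles are matches on the strand of the gene and downward triangles those on the opposite strand, with 3 for Mt1, 4 for Mt2, 2 for Slc30a1, 1 each for Mt3 and Mt4 and 0 for Mtf1.

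Mt1 and Mt2 were higher on every Mll-deficient array than on any control array. Probe set 1422557_s_at of Mt1 read 315, 539, 629, 186 and 462 arbitrary units in control replicates 1 to 5. In Mll-deficient replicates 1 to 5 it read 2816, 1133, 3706, 2315 and 2293. The lowest Mll-deficient array, replicate 2, thus still lay above the highest control, replicate 3. The group means were 426 ± 177 and 2453 ± 934 (SD, n = 5 each), and the difference of log2(signal + 16), Mll-deficient minus control, was 2.50 ± 0.33 (SE), a 5.64-fold difference on that scale. The suffix _s_at marks a probe set whose probes can match more than 1 transcript.

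Mt2 had 1 probe set, 1428942_at, which read 245, 436, 186, 71.8 and 389 in control replicates 1 to 5. In Mll-deficient replicates 1 to 5 it read 3147, 1297, 3364, 2741 and 2605. The arrays again did not overlap, with replicate 4 the lowest control and replicate 2 the lowest Mll-deficient array, as for Mt1. The means were 266 ± 149 and 2631 ± 806 (SD, n = 5 each). On the log2 scale Mt2 differed by 3.37 ± 0.37 (SE), or 10.4-fold. Of 12580 tested genes, 1 had a larger positive difference than Mt2 and 11 a larger one than Mt1. These ranks describe 2 genes chosen with this contrast known. In these bulk samples a higher signal from more cells of a type and from more RNA per cell cannot be told apart.

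**Figure D2:**
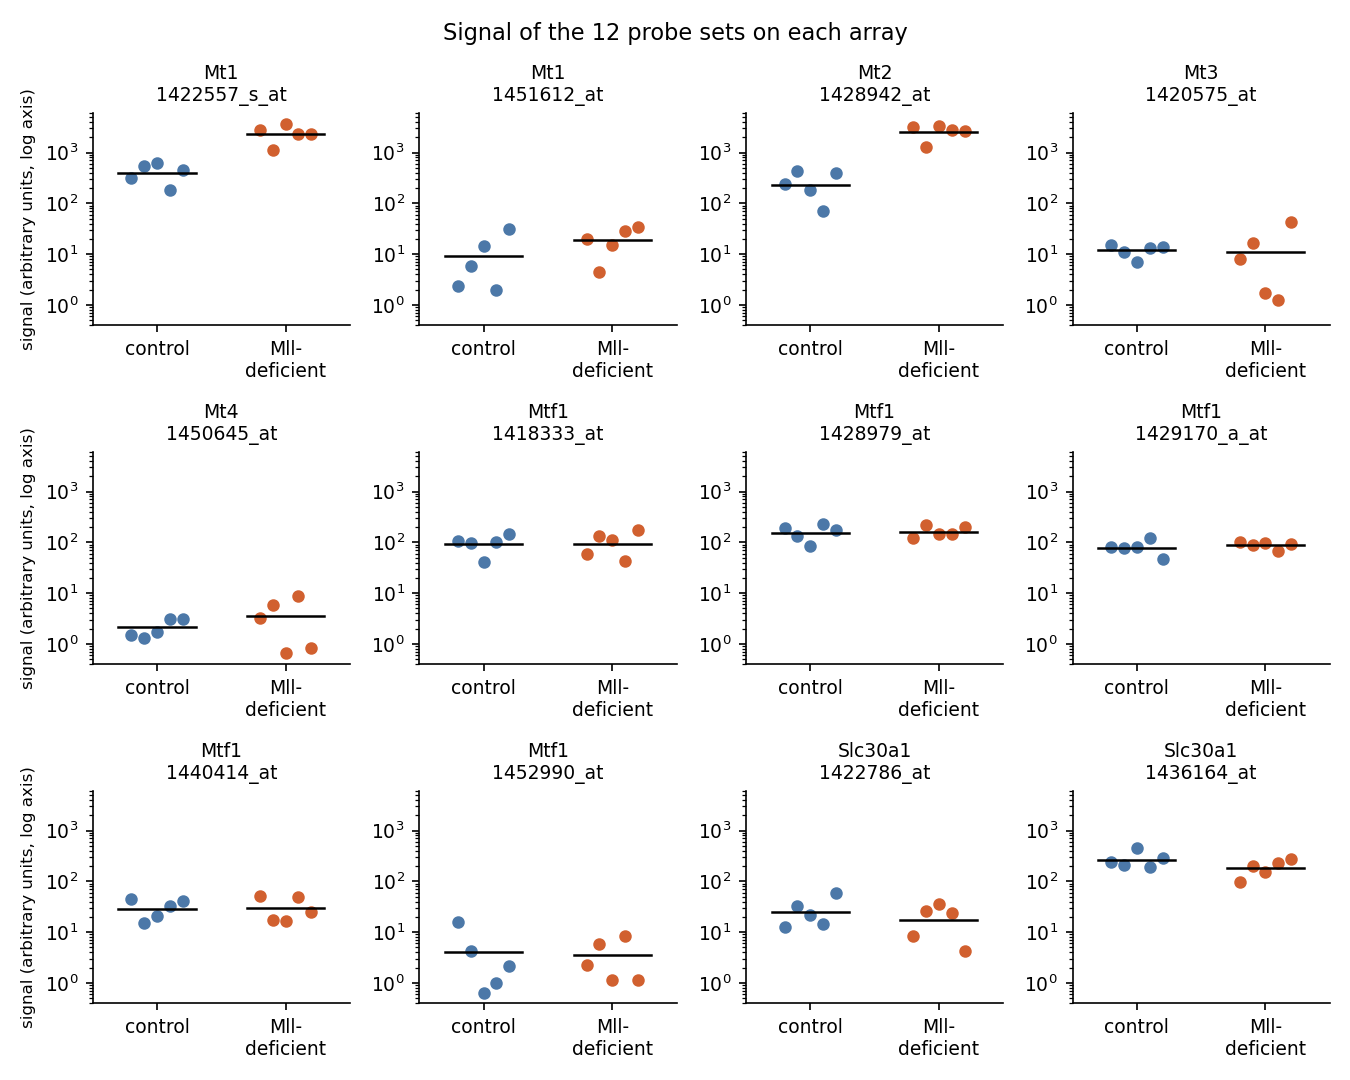
Signal of each of the 12 probe sets on a log axis, with 1 point for each array (replicates 1 to 5 from left to right in each group) and a line at the mean of log2(signal + 16) turned back to signal. The Mt1 probe set 1422557_s_at and the Mt2 probe set lie at 1133 or more on all 5 Mll-deficient arrays and at 629 or less on all 5 controls, and the groups overlap in the other 10 panels.

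Mt1 and Mt2 differed among the arrays of 1 group as well. Set against the mean of the controls on the log2 scale, Mt1 lay between -1.02 (control replicate 4) and 0.66 (control replicate 3) in controls, and between 1.49 (replicate 2) and 3.19 (replicate 3) in Mll-deficient samples. Mt2 lay between -1.47 (replicate 4) and 0.90 (replicate 2) in controls, and between 2.43 (replicate 2) and 3.80 (replicate 3) in Mll-deficient samples. The lowest array of each group and the highest Mll-deficient array were thus the same for both genes, while the highest control was not. With each array left out in turn, the difference stayed between 2.24 and 2.75 for Mt1 and between 3.01 and 3.61 for Mt2, lowest without control replicate 4 and highest without Mll-deficient replicate 2. Without control replicate 5, the array that stood apart, it was 2.55 for Mt1 and 3.56 for Mt2.

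The other Mt1 probe set, 1451612_at, did not show this separation. It read 2.32, 5.96, 14.6, 1.97 and 31.8 in controls and 20.3, 4.47, 15.4, 28.9 and 33.9 in Mll-deficient samples, in the order of the replicates, and the groups overlapped. Its difference was 0.46 ± 0.30 (SE), on signals that lay between the 13.3 and the 58.1 percentile of their arrays. The 1422557_s_at signals lay between the 80.5 and the 91.8 percentile in controls and between the 94.9 and the 98.2 percentile in Mll-deficient samples. The probe sets of Mt1 therefore disagree, but signals of the dimmer one are near the limit of what the arrays measure. The brighter one represents the gene in the fit.

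Mt3 and Mt4 were dim in both groups. Mt3 (1420575_at) read from 6.86 to 15.4 in controls and from 1.25 to 43.3 in Mll-deficient samples, and its difference was -0.05 ± 0.29 (SE). Mt4 (1450645_at) read from 1.31 to 3.11 in controls and from 0.651 to 8.85 in Mll-deficient samples, with a difference of 0.11 ± 0.13. Both stayed below the filter on low signal, and without detection calls a signal of this size cannot be told from background. The Mll-deficient arrays spread more widely than the controls for both, and no array stood above the rest for both genes.

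Mtf1, the metal sensor, did not separate the groups on any of its 5 probe sets. The brightest, 1428979_at, read 189, 136, 85.9, 233 and 172 in controls and 123, 216, 146, 145 and 198 in Mll-deficient samples. Its difference was 0.06 ± 0.26 (SE), and the highest and the lowest array were both controls. The probe sets 1418333_at, 1429170_a_at and 1440414_at differed by 0.01 ± 0.34, 0.15 ± 0.24 and 0.01 ± 0.30, and 1452990_at, below the filter, by -0.04 ± 0.18. All 5 differences were thus smaller than their standard error.

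Slc30a1, which moves zinc out of the cell, was lower in mean on both of its probe sets, with overlapping groups. The brighter one, 1436164_at, read 241, 208, 461, 194 and 284 in controls and 98.4, 200, 153, 234 and 270 in Mll-deficient samples. Its means were 277 ± 108 and 191 ± 67.6 (SD, n = 5 each). The log2 difference was -0.51 ± 0.28 (SE). Control replicate 3 was the highest array and Mll-deficient replicate 1 the lowest, and the difference was -0.31 without either of them. The dimmer probe set, 1422786_at, read from 12.6 to 59.1 in controls and from 4.21 to 35.5 in Mll-deficient samples (-0.29 ± 0.32), and it was -0.08 without control replicate 5.

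Of the 12 probe sets, 2 did not overlap between the groups, both higher in Mll-deficient samples. Of all 45037 probe sets, 3.68% did not overlap, 2.06% higher and 1.62% lower in Mll-deficient samples. The median difference of the 12 was 0.03, against -0.03 over all probe sets. Of the 12, 9 passed the filter on low signal, which left 4 of the 6 genes (Mt1, Mt2, Mtf1 and Slc30a1) in the fit across genes. In that fit 5.52% of the 12580 genes were called at an adjusted p of 0.05, 3.76% higher and 1.76% lower. The calls of the 4 member genes are left out, since these genes were chosen with earlier results of the same arrays known. Of the tested genes, 6.96% did not overlap between the groups, 4.42% higher and 2.54% lower. The counts of the 12 probe sets describe genes chosen with the same contrast in view.

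**Figure D3:**
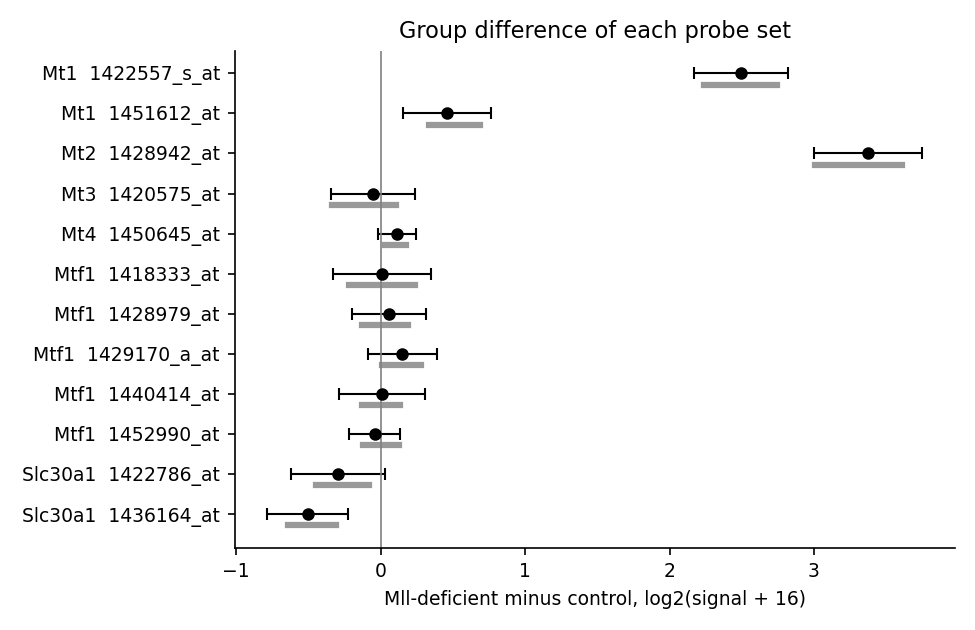
Difference between the groups for each probe set, Mll-deficient minus control on the log2(signal + 16) scale, with bars for the standard error of the model and a grey bar under each for the range with 1 array left out in turn. Mt1 1422557_s_at at 2.50 and Mt2 at 3.37 stand apart from the other 10, which lie between -0.51 and 0.46.

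Many erythroid genes were, like Mt1 and Mt2, higher in the Mll-deficient group. Of 19 erythroid marker genes, 17 were tested, and 11 of them (64.7%) rose and 0 fell (limma, adjusted p of 0.05). Of all 12580 tested genes, 3.76% were higher and 1.76% lower. The marker list was drawn up with earlier results of these arrays known, so its share is a description and not a test of the list. The summed signal of the 17 ranged from 4972 to 9990 in controls and from 18605 to 21318 in Mll-deficient samples. In control replicate 5, which had the highest control sum, Slc4a1 alone read 2751. The defining regulator Klf1 rose from 354 ± 145 to 2860 ± 774 (SD, n = 5 each). The markers Slc4a1, Alas2, Sptb, Epb42, Car2 and Tmod1 did not pass. Control replicate 4 had the lowest sum, 4972, and the lowest Mt1 and Mt2. Among Mll-deficient arrays the lowest sum, 18605, was that of replicate 1, while replicate 2, the lowest for Mt1 and Mt2, had 19354. The part of erythroid cells in the difference of Mt1 and Mt2 was not tested. Of 7 mast cell and basophil genes, 6 were tested and 0 passed limma or an unadjusted p under 0.05, with summed signals of 3311 to 5462 in controls and 2870 to 3887 in Mll-deficient samples.

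**Figure D4:**
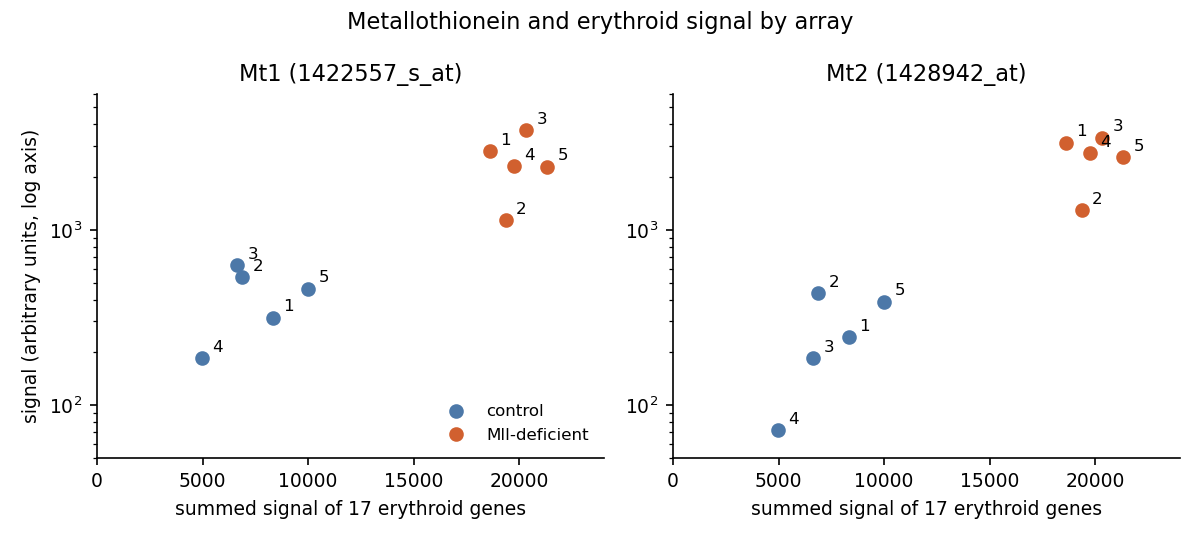
Signal of Mt1 (left) and Mt2 (right) on a log axis against the summed signal of the 17 measured erythroid marker genes, both in arbitrary units, with each array labelled by its replicate number. The 5 control arrays lie at sums of 9990 or less and the 5 Mll-deficient arrays at sums of 18605 or more, and Mll-deficient replicate 2 is the lowest of its group for both genes.

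The genes whose pattern over the 10 arrays was nearest to that of Mt1, by the root mean square difference after each gene was set to 0 at its own mean, were Blvrb (0.34), Tspan33 (0.35), Abcb4 (0.42), Paqr9 (0.44) and Col5a1 (0.44). For Mt2 they were Sphk1 (0.39), Lmna (0.40), Ermap (0.43), Add2 (0.46) and Klf1 (0.49). The median over all tested genes was 1.44 from Mt1 and 1.87 from Mt2. Mt1 and Mt2 were 0.61 apart, with Mt2 at rank 29 in nearness to Mt1 and Mt1 at rank 10 in nearness to Mt2. Since both differ strongly between the groups, this measure mostly picks genes with a group difference of like size, such as Blvrb at 2.52 and Ermap at 3.40.

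The remaining genes of metal handling and of the known inducers of metallothioneins were taken from 7 lists with 74 genes in all, 66 of them tested. Of these, 4 rose (6.06%), 1 fell (1.52%) and 61 did not pass, where 3.76% of all 12580 tested genes were higher and 1.76% lower. The median difference was -0.09, against -0.04 over all tested genes. These lists too were drawn up with earlier results of these arrays known.

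Among zinc importers Slc39a8, which encodes Zip8, a carrier of zinc, manganese and cadmium, rose. It read 168, 160, 365, 121 and 348 in controls and 484, 463, 594, 837 and 978 in Mll-deficient samples, with no overlap. The log2 difference was 1.53 ± 0.31 (limma SE, adjusted p = 0.00955), and the call was kept with each array left out in turn (highest adjusted p 0.0363). A further probe set, below the filter, was at -0.07 ± 0.12 (adjusted p = 0.865 over all probe sets). The other 11 of 12 tested importers did not pass, with differences from -0.45 (Slc39a11) to 0.34 (Slc39a1), and Slc39a3 at -0.24. Slc39a10, which Mtf1 is known to repress, was at 0.16 ± 0.25 (adjusted p = 0.776). Of 7 tested zinc exporters other than Slc30a1, 0 passed limma or an unadjusted p under 0.05, and the nearest by p were Slc30a2 (-0.30 ± 0.23), Slc30a4 (-0.42 ± 0.33) and Slc30a7 (-0.24 ± 0.21), with adjusted p of 0.505, 0.510 and 0.579.

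Of 9 tested genes reported to respond to metals or to Mtf1, Gclc alone passed. Gclc, the catalytic subunit of the enzyme that limits glutathione synthesis, read 280, 236, 276, 232 and 246 in controls and 572, 468, 574, 441 and 612 in Mll-deficient samples. The groups did not overlap, and the difference was 1.02 ± 0.19 (limma SE, adjusted p = 0.00589). Gclm, the modifier subunit of the same enzyme, is in the list of targets of the oxidative stress factor Nrf2, where these subunits were the 2 of 9 tested genes that passed. It read 634, 981, 852, 595 and 382 in controls and 2185, 1280, 1775, 1036 and 1360 in Mll-deficient samples, a difference of 1.15 ± 0.26 (adjusted p = 0.0192). The call of Gclm was lost without control replicate 4, Mll-deficient replicate 1 or Mll-deficient replicate 3 (adjusted p between 0.0504 and 0.0559), and its other probe set was at -0.06 ± 0.24. The other Gclc probe set was at 0.71 ± 0.19 (adjusted p = 0.0897 over all probe sets). Of the others with the smallest p among metal-response genes, Ndrg1 (-0.56 ± 0.19, adjusted p = 0.0994), the iron exporter gene Slc40a1 (-0.42 ± 0.28) and Selenow (0.42 ± 0.29) did not pass. Ndrg1 did not overlap between the groups, and it passed with quantile normalization and with the RNA quality measure in the fit (adjusted p = 0.0466 and 0.0150). Among Nrf2 targets the glutathione reductase gene Gsr (-0.64 ± 0.23, adjusted p = 0.115), Nqo1 (0.29 ± 0.23) and Nfe2l2, the gene of Nrf2 itself (-0.30 ± 0.34), did not pass. Gsr passed without Mll-deficient replicate 2 (-0.79, adjusted p = 0.0449). The stress genes Hmox1 (-0.19 ± 0.31) and Hspa1a (0.37 ± 0.45) did not pass.

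Among 12 tested genes of copper handling, 1 rose and 1 fell. Atp7b, a copper-exporting ATPase, read 26.6, 16.7, 17.2, 13.0 and 28.2 in controls and 139, 65.2, 129, 86.6 and 125 in Mll-deficient samples, with no overlap. Its difference was 1.76 ± 0.24 (limma SE, adjusted p = 6.94e-04). The control signals were dim, and the size depended on the processing. It was 0.69 with averaged probe sets and 2.37 with an offset of 1, and the call was kept in all 11 alternatives with all arrays. Replicate 2, the lowest Mll-deficient array for Mt1 and Mt2, was also the lowest for Atp7b. Its other probe sets were at 0.18 ± 0.24 and 0.13 ± 0.19 and did not pass. Atp7a, the related ATPase, read 273, 277, 301, 295 and 493 in controls and 272, 171, 140, 176 and 115 in Mll-deficient samples. It fell by 0.87 ± 0.25 (adjusted p = 0.0496), but it no longer passed when any 1 array other than Mll-deficient replicate 1 was dropped (9 of 10 such fits). The call was also lost under 7 of 11 other alternatives, and kept with averaged probe sets (adjusted p = 0.0167). The other Atp7a probe set was at -0.86 ± 0.24 (adjusted p = 0.0905 over all probe sets), and the groups overlapped on neither. The transporter gene Slc31a2 was at -0.65 ± 0.25 and did not pass (adjusted p = 0.154). The import gene Slc31a1 (0.32 ± 0.20) and the chaperone genes Atox1 (0.50 ± 0.25) and Ccs (0.42 ± 0.27) did not pass.

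Genes tied to the other inducers did not pass. Of 11 glucocorticoid response genes, 0 passed limma (0 higher and 4 lower at an unadjusted p under 0.05) and the median difference was -0.55. Over all 12580 tested genes, 2606 had an unadjusted limma p under 0.05 in either direction, and the median difference was -0.04. The receptor gene Nr3c1 was at -0.56 ± 0.22 (adjusted p = 0.158), and Sgk1 and Errfi1 were at -0.71 ± 0.30 and -1.04 ± 0.36 (adjusted p = 0.185 and 0.103). Of 10 genes of interleukin 6 and Stat3 signalling, 0 passed limma (0 higher and 4 lower at an unadjusted p under 0.05), and all 10 differences were below 0 with a median of -0.52. The smallest p was that of the transcription factor gene Cebpb, at -0.72 ± 0.26 (adjusted p = 0.127). Stat3 was at -0.79 ± 0.34 and the receptor gene Il6ra at -0.90 ± 0.39 (adjusted p = 0.188 and 0.198). Cebpd, which belongs to both lists, was at -0.55 ± 0.26. Stat3 passed without control replicate 5 (-1.07, adjusted p = 0.0332) and with array weights (adjusted p = 0.0440). Cebpb passed with the RNA quality measure in the fit (-0.78, adjusted p = 0.0132).

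**Figure D5:**
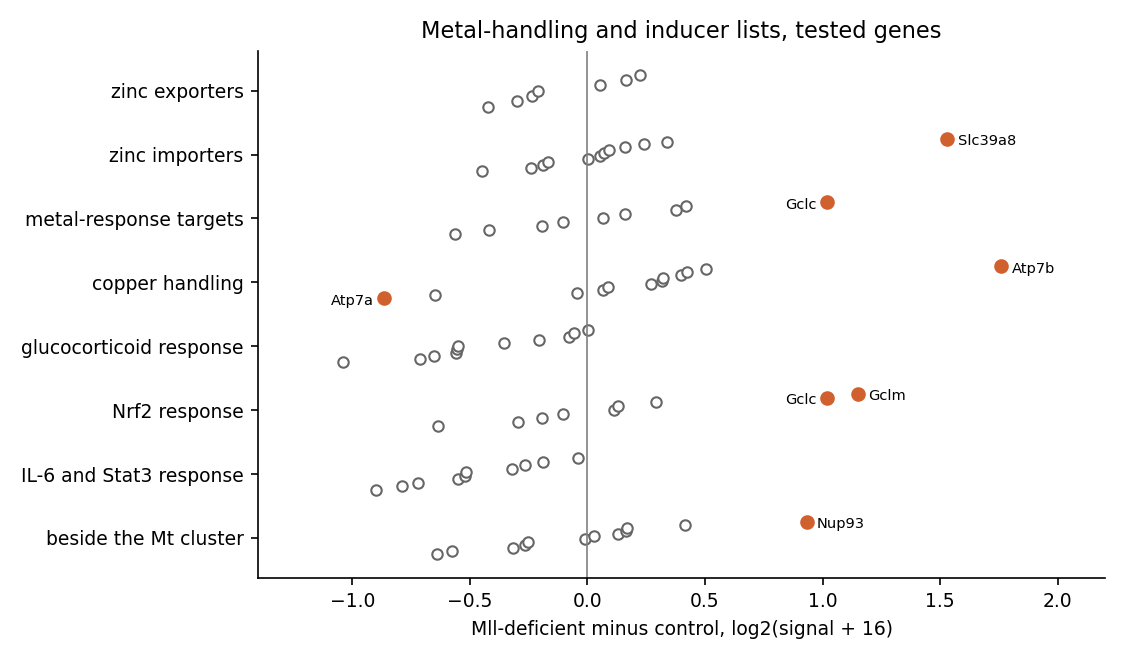
Difference between the groups of each tested gene in the 7 lists and of the genes beside the metallothionein cluster, Mll-deficient minus control on the log2(signal + 16) scale. Filled, named points passed an adjusted p of 0.05 (Gclc stands in 2 lists), and open points did not. Slc39a8, Gclc, Gclm, Atp7b and Nup93 lie to the right of 0, and Atp7a to the left.

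Mt4, Mt3, Mt2 and Mt1 lie next to each other on mouse chromosome 8, between Bbs2 and Nup93 among tested genes. Of the 6 tested genes on each side in the RefSeq order, 1 of 12 passed. Nup93, a nuclear pore gene next to Mt1, rose, with means of 366 ± 88.3 in controls and 706 ± 115 in Mll-deficient samples (SD, n = 5 each). Its log2 difference was 0.93 ± 0.22 (limma SE, adjusted p = 0.0206), with no overlap. That call was lost without control replicate 1 or Mll-deficient replicates 1, 3 or 5 (adjusted p between 0.0535 and 0.0619). Bbs2, on the side of Mt4, was at -0.01 ± 0.28 (adjusted p = 0.987). Of the others on that side, Ces1d, Nudt21 and Ogfod1 were at 0.13, 0.42 and 0.17, and Ces1h and Ces5a at -0.25 and -0.27. Beyond Nup93, Herpud1 and Psme3ip1 were at 0.03 and 0.16, and 9330175E14Rik, Nlrc5 and Cpne2 at -0.64, -0.32 and -0.58, and none of these 10 genes passed. The 12 differences ranged from -0.64 to 0.93 with a median of 0.01. Those of Mt1 and Mt2 were larger than each of them. Mt1 and Mt2 were chosen with their higher signal known, so this comparison is a description and not a test.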

How the data were processed

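Affymetrix signal intensities per probe set were deposited on a linear scale, with MAS5 5.0 as the tool named in the submitters' processing notes, and the deposited intensities of each array had the same mean, 150.001, after the lowest and highest 2% were dropped. No detection calls or scanner files were used here. Such scaling removes differences in total RNA, and amplification favours 3' ends. Probe sets with 1 symbol (34958 of 45101) were named from the platform annotation, updated through RefSeq (GRCm38.p6, 34754 found). None with several symbols names a member.

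Values were transformed as log2(signal + 16), which understates changes of dim genes. Differences between groups were fitted in R 4.3.3 by limma 3.58.1 (intensity trend, two-sided, Benjamini-Hochberg adjustment, threshold 0.05) over 12580 genes, each by its brightest probe set, with a mean above the 40th percentile. Values of member probe sets come from the same model fitted, unfiltered, to every probe set. The members and gene lists were chosen with earlier results of these data known. Named genes are all members, Kmt2a, gate markers, genes of each pathway list that passed and up to 3 more by smallest p, the genes beside the cluster and the 5 nearest patterns; other names were chosen after their values were seen. The procedure was tested on simulated data. Alternatives covered the offset, normalization, filter, probe set averaging, variance prior, array weights, replicate block, RNA quality and each array left out. The number of arrays limits the precision.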

Additional observations from a re-analysis of the deposited data

Results flagged for a closer look

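In groups of 5 arrays, a sample was singled out when its gap to the nearest other array exceeded 0.71 of the range of the log2 values. By chance about 1 group in 20 does so, and 6 of 68 groups of values did here. For Mt2, Mll-deficient replicate 2 was low, at 1297 where the others read 2605 to 3364 (gap 0.731 of the range), and the difference without it was 3.61. For Nup93, Mll-deficient replicate 4 was low, at 509.99 against 712 to 792 (0.759). For Atp7a, control replicate 5 was high, at 493 against 273 to 301 (0.84), and for Sgk1 it was low, at 320 against 496 to 527 (0.878). Errfi1 (0.789 against 27.9 to 43.4, gap 0.761) and Nr3c1 (136 against 207 to 243, gap 0.721) were low in Mll-deficient replicate 3.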

How the results depend on the processing

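For Mt1 1422557_s_at and Mt2, the difference lay between 2.36 and 2.56 and between 3.11 and 3.48 over the alternatives that kept all arrays. With an offset of 1 the dim probe sets moved by more than their spread, to 1.16 for Mt1 1451612_at, -0.59 for Mt3 and 0.33 for Mt4. The 4 pathway genes that rose were 3 to 5 in number with 1 array left out, and 3 with averaged probe sets. The count of genes that fell, 1, became 0 with offset 1, centring on medians, no filter, no intensity trend and the replicate block. It became 3 with the RNA quality measure, 2 at an adjusted p of 0.1, and 0 to 1 with 1 array left out. With quantile normalization and with array weights it stayed at 1, but Atp7a lost its call there (adjusted p = 0.0670 and 0.0547). Ndrg1 passed in its place with quantile normalization, and Stat3 with array weights. The gene passing beside the cluster became 0 to 1 with 1 array left out. Bbs2, not called, turned to 0.0106 with offset 64, 0.0581 with quantile normalization, 0.0494 with centring and 0.0260 with array weights, and lay between -0.17 and 0.22 with 1 array left out. The cause of these moves was not tested. All genes passing numbered 694, 1610 with the RNA quality measure, and 307 to 873 with 1 array left out. With the replicate block 588 genes passed and Atp7a did not (adjusted p = 0.0887). Correlations of deviations between same-numbered arrays lay between -0.228 and 0.277, and the main fit did not pair them. The RNA quality measure was lowest in replicate 2 and highest in replicate 5 in both groups. It read 1.73 and 5.24 there in controls and 2.37 and 3.87 in Mll-deficient samples. Whether same-numbered arrays shared a step of processing was not tested. Without detection calls, signals of Mt3, Mt4, Mt1 1451612_at and Mtf1 1452990_at are near the limit of what the arrays measure. Slc30a1 1422786_at, which read from 4.21 to 59.1, was dim too.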
